A study of Mus musculus with 12 samples.

Results

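Nephron progenitor cells kept in NPEM, the nephron progenitor expansion medium, were compared with the same kind of cells after 24 h in a DMEM control that held neither of the study's drugs. The comparison took the 3 DMEM control and the 3 NPEM control libraries, 6 of the 12 libraries of the series, and asks what changes in the transcriptome when cells leave the expansion medium with no drug added. All groups are wild-type mouse nephron progenitor cells taken at E13.5, from CD1 females mated with Six2GFP+ or GFP- males, isolated with magnetic beads and expanded in NPEM before the 24 h of culture. Wild-type here leaves aside the Six2GFP transgene, which some of the embryos may carry. Which libraries hold cells with it is not given in the sources used here. The other libraries, 3 with 3.5 µM CHIR (CHIR99021, a GSK3 inhibitor) and 3 with 20 µM YN1 (a PFKFB3 inhibitor that blocks glycolysis), were cultured in DMEM with 200 ng/mL Fgf2 and knockout serum replacement, and are used only to set levels side by side. The composition of the NPEM and of the DMEM control is not given in the sources used here, so which component an effect belongs to cannot be told apart.

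Nephron progenitors are the mesenchymal cells that cap the tips of the ureteric bud and give rise to every epithelial segment of the nephron. The transcription factor Six2 keeps them undifferentiated, and WNT signals that act through beta-catenin can both renew them and drive them to form epithelium. In the developing kidney they lie beside stromal cells, which express Foxd1 and supply retinoic acid-dependent signals, and beside ureteric epithelium, which answers to the Gdnf that progenitors secrete. An expansion medium holds such cells in division by replacing the signals of that niche.

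Levels are the authors' TPM (a length-scaled share of transcripts) per gene, and LogFC is the difference of the mean log2(TPM + 1), DMEM control minus NPEM control. It is given with limma's moderated standard error, n = 3 libraries per group, in which each gene's variance is drawn towards that of all genes tested. The log2(TPM + 1) scale understates the change of genes with low TPM. A gene was tested where at least 3 of the 6 libraries had 1 TPM or more, and was called where limma's Benjamini-Hochberg adjusted p over all genes tested was under 0.05. Of 14343 genes tested, 64 were called (0.446%), 49 higher in DMEM (0.342%) and 15 lower (0.105%). Libraries with the same replicate number deviated together from their group means, so the fit was also made with the replicate number as a block, which called 933 genes (6.5%), 619 higher (4.32%) and 314 lower (2.19%), among them all 64. At the study's own threshold, a LogFC beyond 0.6 with an unadjusted p under 0.05, 1523 genes passed (10.6%), 1101 higher (7.68%) and 422 lower (2.94%), and 2230 (15.5%) had an unadjusted p under 0.05, 1542 higher (10.8%) and 688 lower (4.8%). The study applied that threshold to fold changes and Wald tests of other software, Sleuth. Its own counts of genes are therefore not on the same measure as these limma counts. The 64 called genes had no overlap between the 6 libraries, against 15.1% of all tested genes higher and 7.02% lower without overlap. The LogFC was above 0 in 8650 of the 14343 genes and below 0 in 5693. Counts of list members below are to be read beside these shares over all genes tested. "Rose" and "fell" are used below for genes called without the block, and genes called with it only are named as such.

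The libraries differed by replicate number as well as by medium. The first principal component of log2(TPM + 1), with 32.7% of the variance, separated the media, with NPEM at -43.4, -43.2 and -1.49 and DMEM at 16.2, 18.2 and 53.7. Replicate 1 of each medium, at -1.49 and 53.7, lay apart from its group on this component too. NPEM replicate 1 lay nearer there to DMEM replicates 2 and 3 than to the other NPEM libraries. The 32.7% is therefore not a measure of the medium alone. The second held 30.6%. The replicate 1 libraries also stood apart from the others of their group on the second, at 57.1 for NPEM and 23.0 for DMEM, against -39.6 to 2.0 in the other 4 libraries. The 6 libraries summed to 970689 to 973056 TPM, with 13899 to 14511 genes at 1 TPM or more, and since TPM hold no counts the sequencing depth is unknown. Mir6236, a small RNA name that often collects ribosomal reads, was at 18014 to 21181 TPM in the replicate 1 libraries and 38078 to 52316 TPM in the others. Leaving out single libraries moved the number of calls to 32 without NPEM replicate 1, 10 without NPEM replicate 2, 14 without NPEM replicate 3, 38 without DMEM replicate 1, 32 without DMEM replicate 2 and 10 without DMEM replicate 3. In each of these 6 fits all 64 genes kept their direction. Among the called genes with established names, Dhrs3, Crispld2, Ackr3, Hic1 and Rgs2 stayed under the threshold in all 6. Calls made with the block were checked by leaving out a replicate number in both media, an alternative chosen after the data were seen, which gave 383, 36 and 350 calls without replicates 1, 2 and 3.

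**Figure D1:**
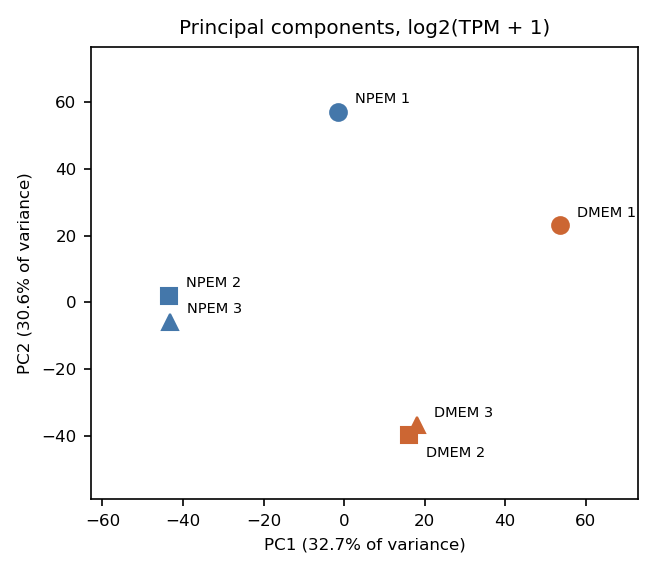
Principal components of log2(TPM + 1) over 14343 tested genes, 1 point per library, NPEM control in blue and DMEM control in orange, with circles, squares and triangles for replicates 1, 2 and 3. PC1 (32.7% of the variance) separates the media, and on both PC1 and PC2 (30.6%) replicate 1 of each medium lies apart from replicates 2 and 3.

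The progenitor label was checked against its markers. Six2 stood at 74.1, 170 and 118 TPM in NPEM replicates 1 to 3 and at 47.1, 175 and 121 TPM in DMEM, with a LogFC of -0.19 ± 0.51. Its level followed the replicate number more than the medium, with replicate 1 lowest in both. Cited1, a marker of the least committed progenitors, was at 22.3, 90.8 and 38.2 TPM in NPEM and 27.9, 84.4 and 36.7 TPM in DMEM. Osr1 and Wt1, transcription factors of the nephrogenic mesenchyme, had LogFC of -0.15 ± 0.69 and 0.23 ± 0.36. The direction of these 4 markers changed with the library left out, for Six2 from -0.59 to 0.35. Pax2, another defining marker, was low in every library, from 0.50 to 3.97 TPM. Of 23 progenitor identity genes, all tested, none was called by limma without the block. As higher, 3 passed an unadjusted p under 0.05 (10.8% of all genes tested did), and as lower 1 (4.8% of all). With the block, 1 was called higher (4.32% of all) and 1 lower (2.19% of all), so the list held few calls beyond these shares. The 1 called higher was Ncam1, an adhesion molecule (25.1, 35.9 and 29.5 TPM in NPEM, 61.7, 62.0 and 86.3 TPM in DMEM). The study counts Ncam1 with differentiation of these cells, so its call is not a rise of an identity factor. The 1 called lower was Meox2, a homeobox factor (210, 198 and 216 TPM against 126, 129 and 108 TPM). The median LogFC of the 23 genes was -0.18, beside 0.09 for all genes tested, and it lay between -0.47 and 0.00 when single libraries were left out. With the block, 0, 0 and 1 of the 23 were called without replicates 1, 2 and 3.

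Markers of other cells were not the same in all libraries. Krt8, Krt18 and Cdh16, epithelial genes, were at 34.7, 37.8 and 67.2 TPM in NPEM replicate 3 and at 57.3, 63.3 and 24.3 TPM in DMEM replicate 3, and at most 2.27 TPM in the other 4 libraries. The 9 tested markers of the ureteric bud held no call, and Ret and Wnt9b, which define it, stayed under 1 TPM in every library. The whole list of 16 ureteric markers summed to 37.3 to 248 TPM in NPEM and 38.1 to 249.5 TPM in DMEM. The 14 blood markers summed to 3.15 to 5.19 TPM in NPEM and 5.76 to 11.6 TPM in DMEM, with Adgre1, C1qa and Hbb-bt listed at 0 in all 6. The 11 endothelial markers summed to 138 to 269.96 TPM in NPEM and 124 to 277 TPM in DMEM, with Pecam1 under 1 TPM and Cdh5 under 0.1 TPM throughout. Only 3 of the 11 were tested, with a median LogFC of -1.31. Of these 3, 2 were lower in DMEM without overlap (7.02% of all genes tested were) and 1 had a LogFC above 0. With the block, Kdr, a VEGF receptor, was called lower (12.3, 4.49 and 5.47 TPM against 4.42, 0.309 and 0.528 TPM), and it was called so without replicate 1 but not without replicate 2 or 3. The 16 stromal markers summed to 3783, 1325 and 1492 TPM in NPEM and to 4962, 2059 and 3782 TPM in DMEM, higher in DMEM within each replicate number. In bulk RNA, fewer cells of a type and less RNA per cell cannot be told apart.

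Genes of retinoid handling held the largest difference of all genes tested. Dhrs3 encodes a retinaldehyde reductase that turns retinaldehyde back to retinol and is itself induced by retinoic acid. It was at 0.954, 0.416 and 1.52 TPM in NPEM and at 531, 589 and 531 TPM in DMEM (mm9 chromosome 4, 144482730 to 144518112, plus strand). The LogFC of Dhrs3 was 8.17 ± 0.23 (adjusted p = 6.4e-05 in limma), and the next largest of all genes tested was 4.63, of Ogn. The ratio of the mean TPM was 571. Tgm2, a transglutaminase long used as a retinoic acid response gene, rose from 0.709, 0.577 and 2.03 TPM to 61.1, 25.8 and 37.6 TPM (LogFC 4.31 ± 0.40, adjusted p = 0.013 in limma). Cyp26b1, which degrades retinoic acid, was nearly silent in NPEM at 0.0327, 0.188 and 0.0647 TPM and stood at 9.20, 8.41 and 4.89 TPM in DMEM (LogFC 2.92 ± 0.29, adjusted p = 0.019 in limma).

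Of 15 retinoid genes tested out of 22 listed, these 3 rose and none fell, and with the block 7 were called higher and 1 lower. Over all genes tested, 0.342% rose, and with the block 4.32% were called higher and 2.19% lower. Of the 4 members called higher with the block only, 3 are given here. Rarb, the retinoic acid receptor whose own promoter carries a classical response element, stood at 27.8, 8.49 and 12.5 TPM in NPEM and 131, 78.3 and 92.6 TPM in DMEM. Rarg, another of the receptors, was at 35.1, 20.1 and 27.9 TPM and at 73.1, 45.6 and 48.5 TPM. Stra6, the cell surface receptor for retinol carried in blood, was at 1.39, 2.91 and 0.742 TPM and at 5.25, 24.0 and 15.7 TPM. In all 3 genes every DMEM library lay above every NPEM library. The member called lower was Crabp1, a cytoplasmic retinoic acid-binding protein, at 75.7, 32.8 and 27.5 TPM against 34.99, 9.92 and 3.53 TPM, lower within each replicate number although the groups overlap. Aldh1a2, the enzyme that makes retinoic acid in kidney stroma, was at 468, 690 and 412 TPM in NPEM and 297, 451 and 350 TPM in DMEM and was not called (adjusted p = 0.37, with the block 0.058, both in limma). The median LogFC of the list was 0.58 beside 0.09 for all genes tested. When single libraries were left out the adjusted p in limma stayed at or under 0.0026 for Dhrs3, while Tgm2 reached 0.079 without NPEM replicate 2 and 0.070 without DMEM replicate 3. With the block, 6, 2 and 6 members were called higher without replicates 1, 2 and 3. Cyp26b1 kept its call only without DMEM replicate 3 (0.048) and lay between 0.054 and 0.095 without each of the other 5 libraries.

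Promoters of 5 genes are printed to show the regulatory letters that lie before genes of the leading groups. The sequences are those of RefSeq on GRCm38.p6, the 250 bases before the start site, 5′ to 3′ on the gene's strand, and capitals mark the matched motif. They were chosen after the matches were seen. The first is the Rarb promoter (chr14:16575477-16575726, minus strand), whose capitals mark a direct repeat of the GGTTCA and AGTTCA half-sites with 5 bases between them, beginning 53 bases before the start site.
Rarb: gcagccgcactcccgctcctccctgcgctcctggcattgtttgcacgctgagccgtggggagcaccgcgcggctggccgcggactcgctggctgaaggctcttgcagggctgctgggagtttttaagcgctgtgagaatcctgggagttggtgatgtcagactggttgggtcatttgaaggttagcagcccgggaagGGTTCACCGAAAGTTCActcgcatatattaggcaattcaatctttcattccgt
The Cxcl12 promoter (chr6:117168285-117168534, plus strand) carries ATCAAAG, the other strand of the TCF/LEF core CTTTGAT, from 163 bases before the start site.
Cxcl12: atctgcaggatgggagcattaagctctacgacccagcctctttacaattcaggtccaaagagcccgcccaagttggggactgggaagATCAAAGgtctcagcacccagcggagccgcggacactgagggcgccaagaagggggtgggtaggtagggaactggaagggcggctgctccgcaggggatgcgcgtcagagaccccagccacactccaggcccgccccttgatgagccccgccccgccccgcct
The Myl9 promoter (chr2:156775214-156775463, plus strand) and 1 of the Fhl2 promoters (chr1:43163962-43164211, minus strand) each carry a CArG box, the element that serum response factor binds, from 161 and 31 bases before the start site.
Myl9: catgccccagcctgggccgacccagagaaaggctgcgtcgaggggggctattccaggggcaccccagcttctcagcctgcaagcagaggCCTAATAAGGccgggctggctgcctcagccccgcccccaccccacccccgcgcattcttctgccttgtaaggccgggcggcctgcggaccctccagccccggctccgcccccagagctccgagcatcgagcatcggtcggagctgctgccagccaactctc
Fhl2: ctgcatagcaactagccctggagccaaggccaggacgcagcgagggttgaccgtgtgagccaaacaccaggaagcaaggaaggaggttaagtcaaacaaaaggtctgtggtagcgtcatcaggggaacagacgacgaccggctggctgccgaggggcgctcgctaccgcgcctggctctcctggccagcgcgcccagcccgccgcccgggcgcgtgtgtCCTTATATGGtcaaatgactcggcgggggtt
The Ecm1 promoter (chr3:95739570-95739819, minus strand) carries an AP-1 site, TGAGTCA, from 64 bases before the start site.
Ecm1: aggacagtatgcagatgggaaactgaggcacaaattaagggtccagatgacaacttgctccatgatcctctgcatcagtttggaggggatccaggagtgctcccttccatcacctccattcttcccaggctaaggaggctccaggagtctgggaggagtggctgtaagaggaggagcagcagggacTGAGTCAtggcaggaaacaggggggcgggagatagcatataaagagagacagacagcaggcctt

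The motifs were searched on both strands in windows of 300 bases, 250 before and 50 after each start site, for 32851 RefSeq promoters. Of the 49 genes called higher, 29 were in the table with 47 promoters, and of the 15 called lower, 8 with 9 promoters. The AP-1 site TGANTCA was in 7 of the 47 promoters (14.9%), those of Ypel4, Ecm1, Fblim1, Vps13d, Prss23 and Dmd, in 4.68% of the promoters of tested genes and in 7.81% of all promoters. Among the 641 promoters of genes called higher with the block it was in 6.55%. The CArG box was in 3 of the 47 (6.38%), those of Fhl2 and Dmd, in 1.4% of those of tested genes and 1.63% of all, and in 2.18% of the 641. The TCF/LEF core was in 1 of the 47 (2.13%), that of Cxcl12, in 2.42% of those of tested genes and 3.73% of all, and in 2.18% of the 641. A repeat of the retinoic acid type, AGNTCA followed after 5 bases by AGNTCA, and the sterol regulatory element TCACNCCAC were in none of the 47. They were in 0.0705% and 1.1% of the promoters of tested genes, and in 0.204% and 1.24% of all. This repeat needs an A at the start of each half-site, so it cannot match the Rarb element, whose first half-site is GGTTCA. Its absence therefore does not cover all forms of retinoic acid element. None of the motifs searched was in the 9 promoters of genes called lower. The repeat in its Rarb form, GGTTCA followed after 5 bases by AGTTCA, added after the data were seen, was in 2 of all 32851 promoters, Rarb among them. A match describes letters in a window and is not evidence of binding.

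The chemokine Cxcl12, which guides migrating cells, and its scavenger receptor Ackr3 rose together in level. Cxcl12 was at 85.7, 282 and 106 TPM in NPEM and at 1881, 3231 and 2509 TPM in DMEM (LogFC 4.17 ± 0.45, adjusted p = 0.024 in limma), with every DMEM library above every NPEM library. Ackr3 was at 2.13, 2.25 and 2.59 TPM and at 49.7, 34.0 and 30.4 TPM (LogFC 3.52 ± 0.24, adjusted p = 0.0058 in limma). Cxcr4, the signalling receptor for the same ligand, was at 14.5, 12.3 and 7.94 TPM in NPEM and at 0.612, 6.66 and 3.15 TPM in DMEM, lower in every DMEM library but not called in either fit (adjusted p = 0.23, with the block 0.11, both in limma). Of 9 chemokines and receptors tested, these 2 rose and none fell, beside 0.342% and 0.105% of all genes tested. Ackr3 stayed called without each library, at most 0.048, while Cxcl12 had an adjusted p in limma of 0.056 without NPEM replicate 1, 0.097 without NPEM replicate 3, 0.073 without DMEM replicate 2 and 0.10 without DMEM replicate 3.

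Among secreted WNT proteins the ligand Wnt2b rose from 0.0276, 0.736 and 0.120 TPM in NPEM to 11.4, 36.3 and 25.5 TPM in DMEM (LogFC 4.2 ± 0.45, adjusted p = 0.024 in limma). Only 6 of 19 WNT ligands passed the filter. Wnt5b, a ligand of the beta-catenin independent kind, was called lower with the block only, at 46.7, 40.5 and 44.7 TPM against 15.3, 20.9 and 20.4 TPM. Wnt4, which progenitors express as they turn into epithelium, was at 0.799, 0.306 and 0.399 TPM in NPEM and 3.99, 1.596 and 13.02 TPM in DMEM and was not called (LogFC 1.93 ± 0.59). Leaving out single libraries, Wnt2b kept its call only without DMEM replicate 1 (0.023) and its adjusted p in limma lay between 0.057 and 0.11 without each of the other 5.

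Of 17 tested WNT antagonists and beta-catenin targets, Myc fell, and with the block Dkk1 and Nkd2 were also called lower (2.19% of all genes tested were). Dkk1, a secreted WNT inhibitor that is itself a target of the pathway, was at 38.2, 144 and 69.9 TPM in NPEM and at 9.84, 19.2 and 2.69 TPM in DMEM. Nkd2, a feedback inhibitor, was at 21.5, 9.91 and 6.21 TPM and at 6.55, 3.49 and 3.42 TPM. Axin2, Lgr5 and Tcf7, which are widely read as beta-catenin targets, were each lower in every DMEM library than in every NPEM library without a call in either fit. Of the 17, 6 were lower without overlap (7.02% of all genes tested were) and 1 was higher without overlap (15.1% of all). Axin2 was at 9.19, 6.04 and 6.72 TPM against 1.14, 2.82 and 4.12 TPM (LogFC -1.24 ± 0.37, adjusted p = 0.20 in limma). The list was not uniform, with 7 of 17 above 0 and a largest LogFC of 1.36, in a member not called in either fit. Its median LogFC was -0.26, which ran from -0.63 to 0.01 when single libraries were left out. By replicate number the median was -0.80, -0.04 and 0.05, so replicate 1 held most of the difference. With the block, 3, 0 and 2 members were called lower without replicates 1, 2 and 3.

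Of 22 tested genes of the contractile smooth muscle programme, many of them targets of serum response factor, 2 rose and none fell. With the block 11 of the 22 were called higher and none lower, beside 4.32% higher and 2.19% lower of all genes tested. Tagln, an actin-binding protein of smooth muscle, rose from 100, 96.6 and 44.4 TPM to 1508, 457 and 1281 TPM (LogFC 3.65 ± 0.51, adjusted p = 0.047 in limma). Fhl2, a LIM-domain cofactor, rose from 55.5, 87.1 and 79.4 TPM to 224, 177 and 190 TPM (LogFC 1.42 ± 0.19, adjusted p = 0.044 in limma). Within DMEM, Tagln was lowest in replicate 2. The same order was seen in the calponin Cnn1, at 3.23, 2.05 and 1.74 TPM in NPEM and 144, 21.6 and 111 TPM in DMEM, and in the smooth muscle actin Actg2, at 7.10, 5.97 and 2.93 TPM and 280, 30.4 and 195 TPM. Both were called with the block only, as were the myosin light chain Myl9 (205, 136 and 64.8 TPM against 935, 582 and 769 TPM), the tropomyosins Tpm1 and Tpm2, Lmod1, Smtn, Actn1 and the myosin heavy chain Myh11.

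Of the 22 genes, 19 had a LogFC above 0 and 3 below, beside 8650 above and 5693 below of all 14343 genes tested. The median was 0.82 beside 0.09 for all genes tested, and by replicate number it was 1.02, 0.41 and 1.07. With the block, 2, 4 and 7 were called higher without replicates 1, 2 and 3. Srf itself was at 61.8, 66.2 and 52.4 TPM in NPEM and 35, 42.5 and 48.4 TPM in DMEM and was not called. Leaving out single libraries, Fhl2 lost its call in all 6 fits (adjusted p in limma 0.061 to 0.15), and Tagln kept it only without DMEM replicate 2 (0.034), lying between 0.082 and 0.17 otherwise. Among other called genes of muscle or of cell adhesion, Dmd, which encodes dystrophin, rose from 1.28, 1.83 and 1.54 TPM to 8.63, 7.68 and 10.1 TPM, and Lims2 and Fblim1, adaptors of focal adhesions, rose with LogFC of 1.96 ± 0.25 and 1.29 ± 0.18. Leaving out single libraries took their adjusted p in limma to as much as 0.17.

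**Figure D2:**
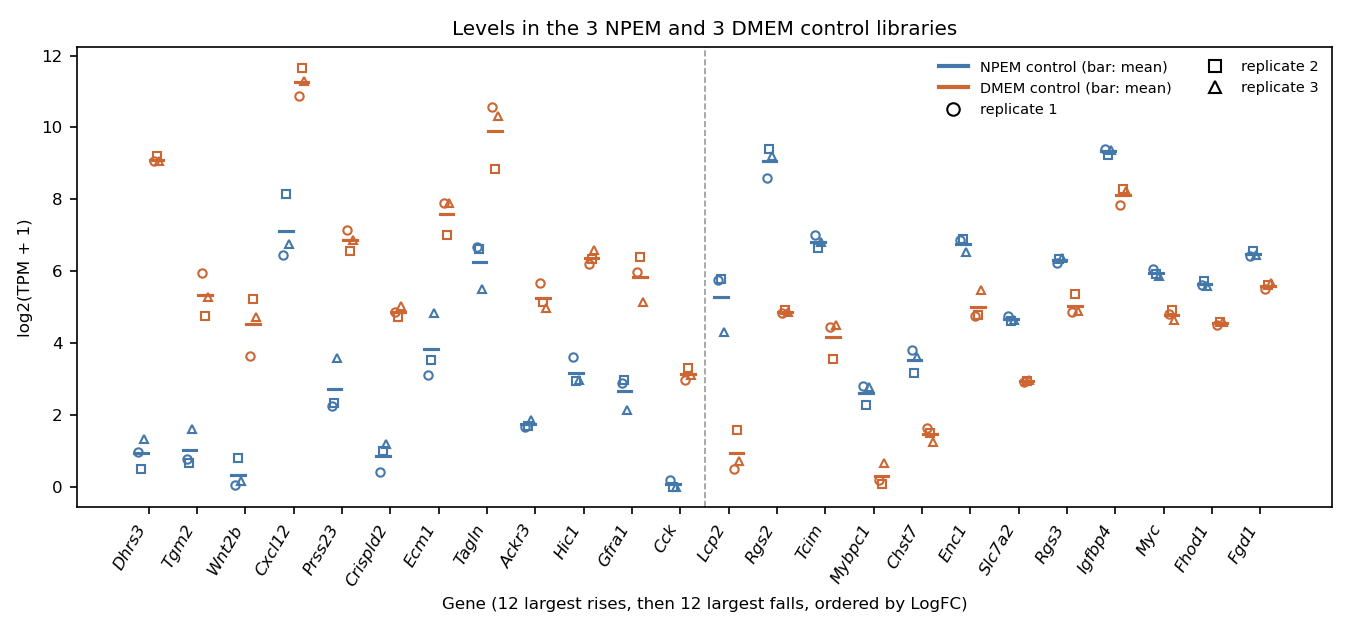
Levels of the 12 largest rises and the 12 largest falls by LogFC, as log2(TPM + 1), in NPEM control (blue) and DMEM control (orange); symbols mark replicates 1 to 3 and bars the means of 3 libraries. Dhrs3 goes from 0.416 to 1.52 TPM in NPEM to 531 to 589 TPM in DMEM, and in none of the 24 genes do the media overlap.

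Of 27 tested matrix and secreted proteins other than collagens, 2 rose and 1 fell. With the block 10 of the 27 were called higher and 2 lower, beside 4.32% higher and 2.19% lower of all genes tested. Crispld2, a secreted glycoprotein, rose from 0.325, 0.9998 and 1.28 TPM to 27.9, 25.4 and 31.4 TPM (LogFC 4.0 ± 0.27, adjusted p = 0.0058 in limma), and kept its call without each library (at most 0.048). Ecm1, a matrix glycoprotein, rose from 7.63, 10.6 and 27.7 TPM to 238, 127 and 238 TPM (LogFC 3.77 ± 0.47, adjusted p = 0.035 in limma). Igfbp4, which binds insulin-like growth factors, fell from 676, 601 and 666 TPM to 230, 314 and 299 TPM (LogFC -1.21 ± 0.15, adjusted p = 0.032 in limma). Ecm1 kept its call only without NPEM replicate 3 (0.027) and Igfbp4 only without DMEM replicate 1 (0.047), with adjusted p in limma up to 0.15 and 0.13 without other libraries.

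The block added Mgp, an inhibitor of calcification, at 364, 187 and 133 TPM in NPEM and 1323, 704 and 1132 TPM in DMEM, and Lox, which crosslinks collagen and elastin, at 128, 86.1 and 50.2 TPM and 549, 274 and 239 TPM. It also added Sparc, Igfbp7, Loxl2, Fbln5, Fbn1 and Bgn as higher, and the proteoglycan Vcan as lower, at 130, 141 and 146 TPM against 70.0, 77.6 and 90.5 TPM. Bgn was highest in replicate 1 of both media, and its direction without the block turned when NPEM replicate 2 or DMEM replicate 1 was left out. Of the 27, 22 had a LogFC above 0, and 8, 3 and 8 were called higher with the block without replicates 1, 2 and 3. The median LogFC of the group was 0.76 and it lay between 0.61 and 0.94 when single libraries were left out.

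None of 32 tested collagen genes was called without the block, 6 passing an unadjusted p under 0.05 as higher (10.8% of all genes tested did) and 4 as lower (4.8% of all). With the block, 7 were called higher (4.32% of all) and 2 lower (2.19% of all). Without replicates 1, 2 and 3 the number called higher was 2, 0 and 8. Col1a2, a chain of the main fibrillar collagen, was at 374, 246 and 340 TPM in NPEM and 699, 377 and 624 TPM in DMEM. Col3a1 differed by replicate number, at 1138, 185 and 353 TPM and 1993, 441 and 1043 TPM. Col5a2, Col6a1, Col6a2, Col12a1 and Col14a1 were the others called higher. Col6a3, from the same heterotrimer family as Col6a1 and Col6a2, was called lower, at 484, 175 and 126 TPM against 152, 78.4 and 42.1 TPM, as was the neuronal transmembrane collagen Col25a1, at 78.0, 34.7 and 20.2 TPM against 25.8, 11.2 and 5.16 TPM. The stromal transcription factor Meis2 rose from 84.8, 76.1 and 80.9 TPM to 223, 308 and 247 TPM (LogFC 1.66 ± 0.15, adjusted p = 0.012 in limma; 0.079, 0.066 and 0.060 without NPEM replicate 2, NPEM replicate 3 and DMEM replicate 3). Foxd1, which defines kidney stroma, was at 0 to 0.0444 TPM in NPEM and at 1.88, 3.01 and 4.201 TPM in DMEM and was called with the block only. Tcf21, also stromal, was not called, at 257, 141 and 119 TPM against 124, 95.6 and 117 TPM, and Postn was called lower with the block, at 891, 131 and 45.0 TPM against 193, 38.1 and 16.2 TPM. The 16 stromal markers, all tested, had a median LogFC of 0.65, by replicate number 0.35, 0.60 and 0.83, with 13 above 0. Of them 1 rose and none fell, beside 0.342% and 0.105% of all genes tested. With the block 4 were called higher and 1 lower, beside 4.32% and 2.19% of all (2, 1 and 4 higher without replicates 1, 2 and 3). The part of stromal cells in the matrix and muscle groups was not tested.

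Of the ligands and targets of TGF-beta, a growth factor that drives matrix production, none of 15 tested genes was called without the block. An unadjusted p under 0.05 was passed by 7, all of them higher (10.8% of all genes tested passed as higher). With the block 4 were called higher (4.32% of all) and none lower. Tgfb3 was at 38.0, 16.4 and 24.2 TPM in NPEM and 124, 44.9 and 103 TPM in DMEM. Tgfb2 was at 27.9, 29.7 and 16.5 TPM and at 57.8, 55.7 and 39.8 TPM. Pmepa1, a feedback inhibitor of the pathway, and Tgfbi, a secreted target, completed the 4. Ctgf, a matricellular protein induced by TGF-beta and by YAP, had the largest LogFC of the list at 2.87 ± 0.65 and was called in neither fit, at 11.6, 18.3 and 20.7 TPM against 300.2, 44.4 and 151 TPM. The median LogFC of the list was 0.99 and by replicate number 0.81, 0.47 and 1.22. With the block, 1, 0 and 1 were called without replicates 1, 2 and 3.

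Components of LIF signalling, which expansion of nephron progenitors often relies on, held no call without the block among 11 tested genes. As higher, 5 passed an unadjusted p under 0.05 (10.8% of all genes tested did). With the block 3 were called higher (4.32% of all). Il6st, the receptor chain shared by the LIF family, was at 60.04, 42.0 and 38.5 TPM in NPEM and 178, 110 and 112 TPM in DMEM. Osmr, the oncostatin M receptor, was at 2.86, 0.843 and 1.84 TPM and at 30.6, 9.59 and 14.6 TPM, and Socs3, the feedback inhibitor that STAT3 induces, at 7.95, 7.36 and 13.8 TPM and 19.7, 15.8 and 43.6 TPM. Stat3 was higher in every DMEM library than in every NPEM library, at 57.7, 51.0 and 95.3 TPM against 132, 105 and 123 TPM, and was not called. The list's median LogFC was 0.86, and with the block 2, 1 and 3 genes were called without replicates 1, 2 and 3.

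The largest falls among called genes with established names were those of Lcp2 and Rgs2. Rgs2, a brake on G protein signalling, fell from 389, 676 and 585 TPM to 27.7, 29.3 and 28.0 TPM (LogFC -4.19 ± 0.21, adjusted p = 0.0016 in limma). The mean in NPEM was 19.4 times that in DMEM, and no left-out library took its adjusted p over 0.023. Its relative Rgs3 fell from 73.6, 80.5 and 81.1 TPM to 28.1, 39.9 and 28.9 TPM (LogFC -1.27 ± 0.17, adjusted p = 0.038 in limma). The other 8 tested Rgs genes were not called in either fit, and 7 of the 10 in all had a LogFC above 0. Over all genes tested, 0.105% fell. Lcp2, an adaptor best known from T cell and platelet signalling, fell from 53.4, 53.9 and 18.8 TPM to 0.406, 2.00 and 0.650 TPM (LogFC -4.35 ± 0.49, adjusted p = 0.027 in limma). Pf4, a platelet chemokine, was called lower with the block only, at 129, 27.5 and 19.4 TPM against 8.58, 2.23 and 1.03 TPM. In the same libraries the pan-leukocyte marker Ptprc stayed under 1 TPM and the macrophage markers Adgre1 and C1qa were listed at 0. Which cells hold the Lcp2 and Pf4 transcripts was not tested. Rgs3 kept its call only without DMEM replicate 2 (0.043) and Lcp2 only without NPEM replicate 3 or DMEM replicate 2 (0.027 and 0.047), with adjusted p in limma up to 0.16 and 0.12 otherwise.

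Among the other named falls, Tcim, a positive regulator of WNT signalling, went from 128, 99.2 and 111 TPM to 20.8, 10.7 and 21.8 TPM (LogFC -2.66 ± 0.28). Mybpc1, a myosin-binding protein of skeletal muscle, fell from 5.90, 3.83 and 5.81 TPM to 0.130, 0.0496 and 0.586 TPM. Slc7a2, which carries arginine and lysine into cells, fell from 25.8, 23.4 and 24.1 TPM to 6.49, 6.73 and 6.85 TPM. Chst7, a sulfotransferase of chondroitin sulfate, and Enc1, an actin-binding protein, fell with LogFC of -2.06 ± 0.26 and -1.77 ± 0.23. Fhod1 and Fgd1, which act on actin assembly and on the GTPase Cdc42, fell with LogFC of -1.08 ± 0.13 and -0.88 ± 0.12. Leaving out single libraries, Mybpc1, Chst7, Fhod1 and Fgd1 lost their calls in all 6 fits (adjusted p in limma 0.069 to 0.17). Tcim kept it only without DMEM replicate 1 and DMEM replicate 2, Enc1 only without DMEM replicate 3 and Slc7a2 only without DMEM replicate 1, each reaching 0.096 to 0.16 in other fits.

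Called with the block only, the largest falls were Pf4, Kcnd3, Dkk1, Pcp4 and Stc1. Kcnd3, a potassium channel, was at 91.1, 61.1 and 32.2 TPM in NPEM and 7.88, 10.8 and 1.81 TPM in DMEM. Stc1, a secreted glycoprotein that acts on calcium and phosphate handling, was at 77.9, 41.4 and 29.5 TPM and at 4.09, 9.21 and 4.92 TPM. The largest rises of that kind were Ogn, Arg1, Cnn1, Actg2 and Clu. Arg1, the arginase of the urea cycle, was listed at 0 in all NPEM libraries and at 5.59, 91.7 and 23.0 TPM in DMEM. Clu, a secreted chaperone, was at 2.28, 21.0 and 20.4 TPM in NPEM and at 45.6, 422 and 306 TPM in DMEM, with replicate 1 lowest in both media, and had the smallest adjusted p with the block of these 10 (0.0043, against 0.15 without it, both in limma).

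Other named rises had varied roles. Hic1, a transcriptional repressor, rose from 11.2, 6.65 and 6.76 TPM to 72.5, 80.4 and 94.9 TPM (LogFC 3.21 ± 0.23, adjusted p = 0.0064 in limma) and kept its call without each library. Gfra1, the receptor that binds Gdnf, rose from 6.37, 6.85 and 3.39 TPM to 61.4, 83.1 and 34.5 TPM (LogFC 3.17 ± 0.38). Prss23, a serine protease, rose from 3.69, 4.02 and 11.0 TPM to 140, 93.4 and 115 TPM. Cck, the peptide hormone cholecystokinin, was listed at 0.142, 0 and 0 TPM in NPEM and at 6.82, 8.92 and 7.53 TPM in DMEM. Efnb2, a membrane ligand of Eph receptors, rose from 6.36, 5.47 and 5.89 TPM to 27.2, 27.2 and 19.5 TPM. Cyp7b1, an oxysterol hydroxylase, rose from 0.871, 0.938 and 1.06 TPM to 13.2, 10.4 and 9.81 TPM. Dbp, an output gene of the circadian clock, rose from 2.72, 2.71 and 3.49 TPM to 14.4, 42.5 and 30.5 TPM. Gfra1 and Efnb2 lost their calls in all 6 fits with a library left out (adjusted p in limma 0.056 to 0.12), Dbp kept it only without DMEM replicate 1, Prss23 and Cck lost it without NPEM replicate 2 and DMEM replicate 3, and Cyp7b1 lost it without these and NPEM replicate 3, with highest values of 0.062 to 0.17. Of the 64 called genes, 9 higher and 3 lower bear predicted or small RNA names and are not described.

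Among feedback genes of FGF signalling, Phlda1 rose from 15.9, 15.1 and 13.47 TPM to 54.4, 43.3 and 43.9 TPM (LogFC 1.6 ± 0.16, adjusted p = 0.020 in limma, and up to 0.10 with a library left out, when it kept its call only without NPEM replicate 1). Dusp4, a phosphatase of ERK, was called lower with the block only, at 142, 130 and 133 TPM in NPEM and 65.2, 75.0 and 45.4 TPM in DMEM. Dusp6, another such phosphatase, was at 170, 170 and 157 TPM and at 141, 95.8 and 92.8 TPM and was not called. The other 12 of 15 tested genes had no call, and 8 of the 15 had a LogFC below 0. Over all genes tested, 0.342% rose, and with the block 2.19% were called lower. With the block, Dusp4 kept its call without replicate 3 (adjusted p = 0.039 in limma) and not without replicate 1 (0.069) or replicate 2 (0.067).

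**Figure D3:**
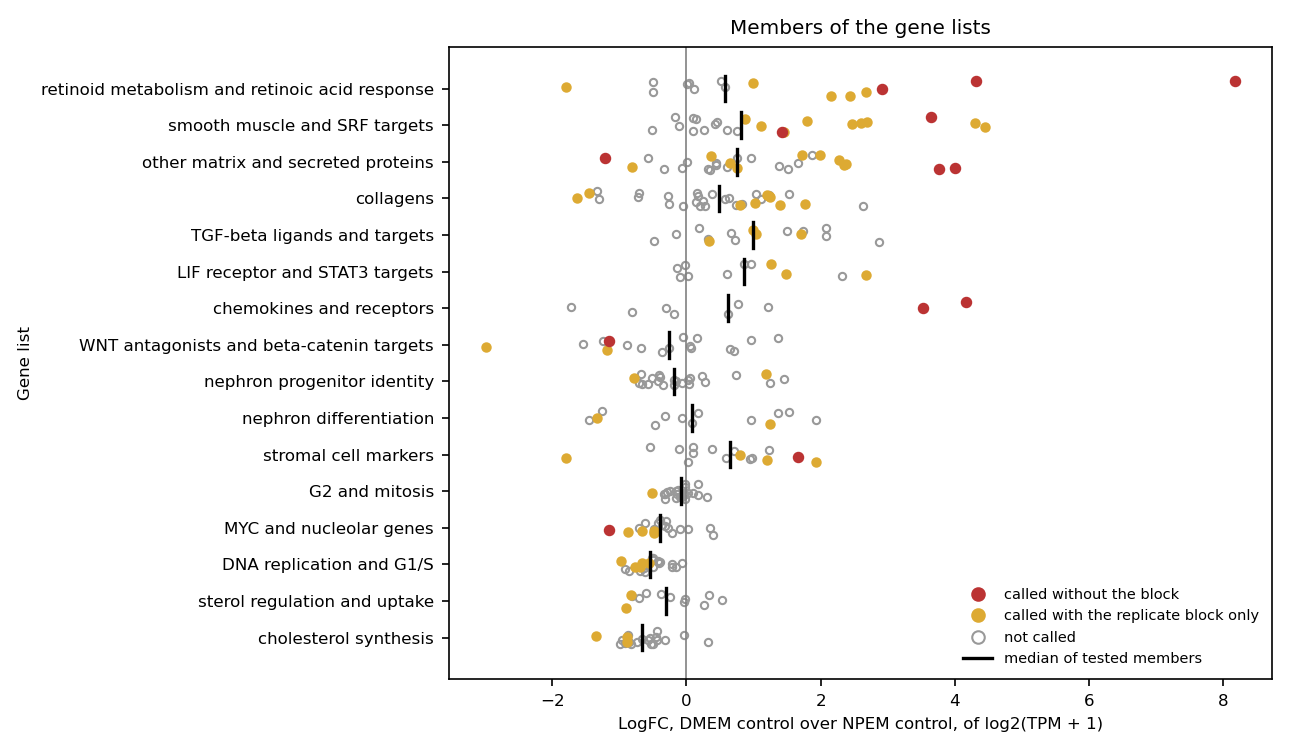
LogFC (DMEM control over NPEM control, of log2(TPM + 1)) of each tested member of 16 gene lists, 1 point per gene, red where called without the block, yellow where called with the replicate block only and open grey where not called; black bars are list medians. All 22 DNA replication genes lie below 0, as do 20 of 21 cholesterol synthesis genes, while Dhrs3 lies furthest to the right at 8.17.

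No enzyme of cholesterol synthesis was called without the block. Of 21 tested, 20 had a LogFC below 0, beside 5693 of all 14343 genes tested. An unadjusted p under 0.05 was passed by 12, all of them lower (4.8% of all genes passed as lower). With the block 3 were called lower (2.19% of all), Hsd17b7 and Fdps among them. Hsd17b7, which acts late in the pathway, was at 73.7, 65.5 and 54.3 TPM in NPEM and at 28.4, 27.2 and 18.9 TPM in DMEM (adjusted p = 0.054, with the block 0.015, both in limma). Fdps, which makes farnesyl pyrophosphate, was at 441, 231 and 366 TPM and at 174, 151 and 226 TPM. The median LogFC of the list was -0.66, and by replicate number -1.33, -0.31 and -0.31, so replicate 1 held the largest difference. In NPEM replicate 1 the 21 enzymes summed to 3195 TPM, against 1728 and 2079 TPM in the other NPEM libraries, and the 3 DMEM libraries summed to 1290, 1315 and 1554 TPM. Without NPEM replicate 1 the median was -0.45, and without replicate 1 in both media -0.29, an alternative chosen after the data were seen. With the block, 2, 0 and 3 were called lower without replicates 1, 2 and 3. Ggps1, which leads to protein prenylation and not to sterols, was the member above 0 (LogFC 0.32 ± 0.22).

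Among 12 tested regulators of sterol synthesis and uptake, 2 were called lower with the block only (2.19% of all genes tested were called lower with it) and none without it. An unadjusted p under 0.05 was passed by 4 as lower (4.8% of all) and 1 as higher (10.8% of all). Insig1, which retains the sterol-sensing complex in the endoplasmic reticulum, was at 182, 158 and 152 TPM in NPEM and 88.6, 85.5 and 101 TPM in DMEM and was among those called. These regulators had a median LogFC of -0.31. Of fatty acid genes, Acly, which makes cytosolic acetyl-CoA from citrate, was called lower with the block only, at 296, 187 and 239 TPM against 120, 120 and 147 TPM, as were Elovl6 (110, 92.1 and 78.6 TPM against 48.6, 47.8 and 53.1 TPM) and the fatty acid synthase Fasn (159, 168 and 284 TPM against 56.6, 86.9 and 167 TPM). Elovl5, an elongase of unsaturated fatty acids, was called higher with it, at 97.1, 64.5 and 66.3 TPM against 171, 145 and 128 TPM. The median LogFC of these 16 genes was 0.06. Without replicates 1, 2 and 3 the block called 0, 0 and 2 of the regulators and 3, 0 and 3 of the fatty acid genes.

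Every one of 22 tested genes of DNA replication and the G1/S transition was lower on average in DMEM (LogFC below 0); the list had a median of -0.54 and values of -0.48, -0.72 and -0.43 by replicate number. None of the 22 was called without the block, 14 passing an unadjusted p under 0.05, all of them lower (4.8% of all genes tested passed as lower). In 15 of the 22 every DMEM library lay below every NPEM library (7.02% of all). With the block 5 were called lower (2.19% of all), a number that went to 0, 0 and 1 without replicates 1, 2 and 3. Mcm2, a subunit of the replicative helicase, was at 103, 104 and 100.1 TPM in NPEM and 67.2, 65.2 and 74.7 TPM in DMEM. Uhrf1, which maintains DNA methylation at replication forks, was at 177, 148 and 190.1 TPM and at 95.7, 59.6 and 111 TPM. Pcna, the sliding clamp, was at 335, 271 and 296 TPM and at 222, 127 and 193 TPM. Chaf1b, a chromatin assembly factor, and Cdt1, a licensing factor, completed the 5. Genes of G2 and mitosis stood nearer to 0. Of 22 tested, 17 were below 0 with a median LogFC of -0.08, and Cdk1, the mitotic kinase, was called lower with the block only, at 517, 406 and 442 TPM against 405, 246 and 318 TPM, a call that was lost without each replicate number in turn. The difference between these lists was not tested.

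Myc, which drives growth and ribosome production, fell from 66.2, 59.1 and 57.3 TPM to 27.1, 29.2 and 24.0 TPM (LogFC -1.16 ± 0.14, adjusted p = 0.032 in limma, and 0.072 to 0.15 with a library left out). Of 19 tested genes around MYC and the nucleolus, Myc was the 1 call (0.105% of all genes tested fell). With the block Fbl, Ppan, Npm1 and Ncl were also called lower (2.19% of all were). Fbl, which methylates ribosomal RNA, was at 326, 289.9 and 327 TPM in NPEM and 207, 173 and 214 TPM in DMEM. Npm1, an abundant nucleolar chaperone, was at 1531, 1537 and 1520 TPM and at 1119, 1040 and 1136 TPM. The median LogFC was -0.40, with 16 of 19 below 0, and by replicate number -0.33, -0.47 and -0.42. With the block, 4, 0 and 2 were called lower without replicates 1, 2 and 3.

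Some enzymes of central metabolism were called with the block only, beside 2.19% of all genes called lower with it and 4.32% higher. In the citric acid cycle those lower were Idh2 (420, 345 and 389 TPM against 246, 225 and 254 TPM) and Suclg2, 2 of 20 tested, with a median LogFC of the list of -0.02 and 9 members above 0. In glycolysis they were the glucose carrier Slc2a1 (38.1, 28.2 and 70.4 TPM against 17.8, 16.4 and 27.4 TPM), the lactate carrier Slc16a1 and Eno1, 3 of 24, with a median of -0.20. In purine synthesis they were Gart, Ppat and Atic, 3 of 12, with a median of -0.25. Among 14 enzymes of serine, glycine and one-carbon metabolism 1 was called higher and 2 lower. Phgdh, the first enzyme of serine synthesis, was higher, at 119, 167 and 211 TPM against 186, 252 and 427 TPM. Mat2a, which makes S-adenosylmethionine, was lower, as was Shmt1, a serine hydroxymethyltransferase, at 64.5, 50.6 and 57.9 TPM against 29.7, 14.998 and 20.4 TPM. Without replicates 1, 2 and 3 the block called 1, 0 and 1 of the citric acid cycle genes, 2, 0 and 0 of the glycolytic genes, none of the purine genes in any of the 3 fits, and 3, 0 and 1 of the serine and one-carbon genes, all of them lower. Among targets of p53, Cdkn1a, an inhibitor of cyclin-dependent kinases, was called higher with the block only, at 87.1, 5.10 and 27.6 TPM against 182, 14.3 and 79.4 TPM, with Ccng1, Phlda3 and Eda2r, while Plk2 was lower. The imprinted genes H19, a long noncoding RNA (1241, 759 and 1257 TPM against 2170, 2913 and 4158 TPM), and Peg3 (58.6, 110 and 56.6 TPM against 182, 217 and 186 TPM) were called higher with the block only. Without replicates 1, 2 and 3 the block called 4, 0 and 3 p53 targets higher and 2, 1 and 2 imprinted genes.

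**Figure D4:**
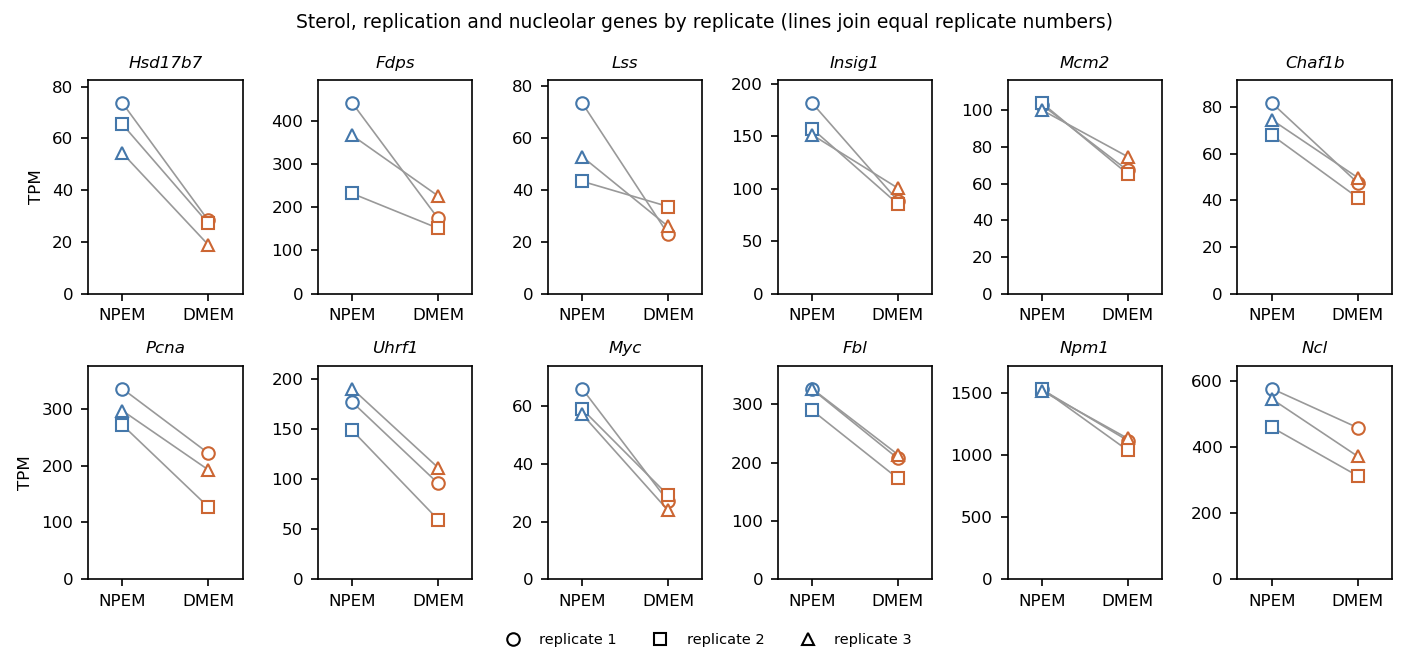
TPM of 12 sterol, replication and nucleolar genes in NPEM control (blue) and DMEM control (orange), with lines joining libraries of equal replicate number. The genes were chosen after their values were seen, most of them because they were called lower, and list members above 0, such as Ggps1, are not shown. Every line goes down, and for Fdps the drop is largest in replicate 1 (441 to 174 TPM).

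The levels of the called genes were then set beside those in the drug libraries, which share the DMEM control with this comparison and so are not independent of it. Against the DMEM control, limma called no gene in YN1 among 14500 tested (75 at an unadjusted p under 0.05, 0.517%; with the block none, and 1074, 7.41%), and 36 (0.252%) in CHIR among 14313, 5 higher and 31 lower, with 1832 (12.8%) under the block. The number in CHIR rested on single libraries, being 0 when any DMEM library or the third CHIR library was left out, 1 when the first CHIR library was and 6 when the second was. Dhrs3 was at 583, 607 and 519 TPM in YN1 and 346, 508 and 385 TPM in CHIR, so all 9 libraries in DMEM lay far above the 3 in NPEM. Rgs2 was at 12.1, 31.5 and 21.2 TPM in YN1 and 24.7, 41.2 and 17.4 TPM in CHIR, and Crispld2 at 40.8, 25.2 and 39.6 TPM and 31.3, 12.2 and 27.9 TPM. For these 3 genes the CHIR libraries stood near the DMEM control, with no call against it in either fit. For Dhrs3, however, every CHIR library lay below every DMEM control library (LogFC -0.43 ± 0.17, adjusted p = 0.24, with the block 0.055, both in limma).

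Other genes differed between CHIR and the DMEM control, and no test of CHIR against NPEM was made. Cxcl12 was at 159, 115 and 84.7 TPM in CHIR and 1967, 3399 and 2708 TPM in YN1, and it was called lower in CHIR than in the DMEM control (LogFC -4.41 ± 0.29, adjusted p = 0.023 in limma). Ypel4 was at 0.236, 0.327 and 0.283 TPM in CHIR, against 5.52, 7.09 and 7.63 TPM in the DMEM control, and was also called lower. For Cxcl12 the CHIR libraries overlapped those in NPEM, and for Ypel4 they lay below them. Ackr3, at 5.47, 12.7 and 3.37 TPM, Wnt2b, at 1.20, 3.97 and 3.798 TPM, and Gfra1, at 3.30, 11.9 and 1.08 TPM, were called lower with the block only. The CHIR libraries of Ackr3 and Wnt2b lay between NPEM and the DMEM control without overlap, and those of Gfra1 overlapped NPEM. Dkk1, at 0.80, 0.69 and 0.32 TPM in CHIR, was likewise called lower with the block only, and lay below both controls. Enc1, at 98.0, 138 and 151 TPM, was called higher with the block only. Mybpc1 went beyond its NPEM level, at 16.5, 73.7 and 32.2 TPM in CHIR, and was called higher than in the DMEM control.

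**Figure D5:**
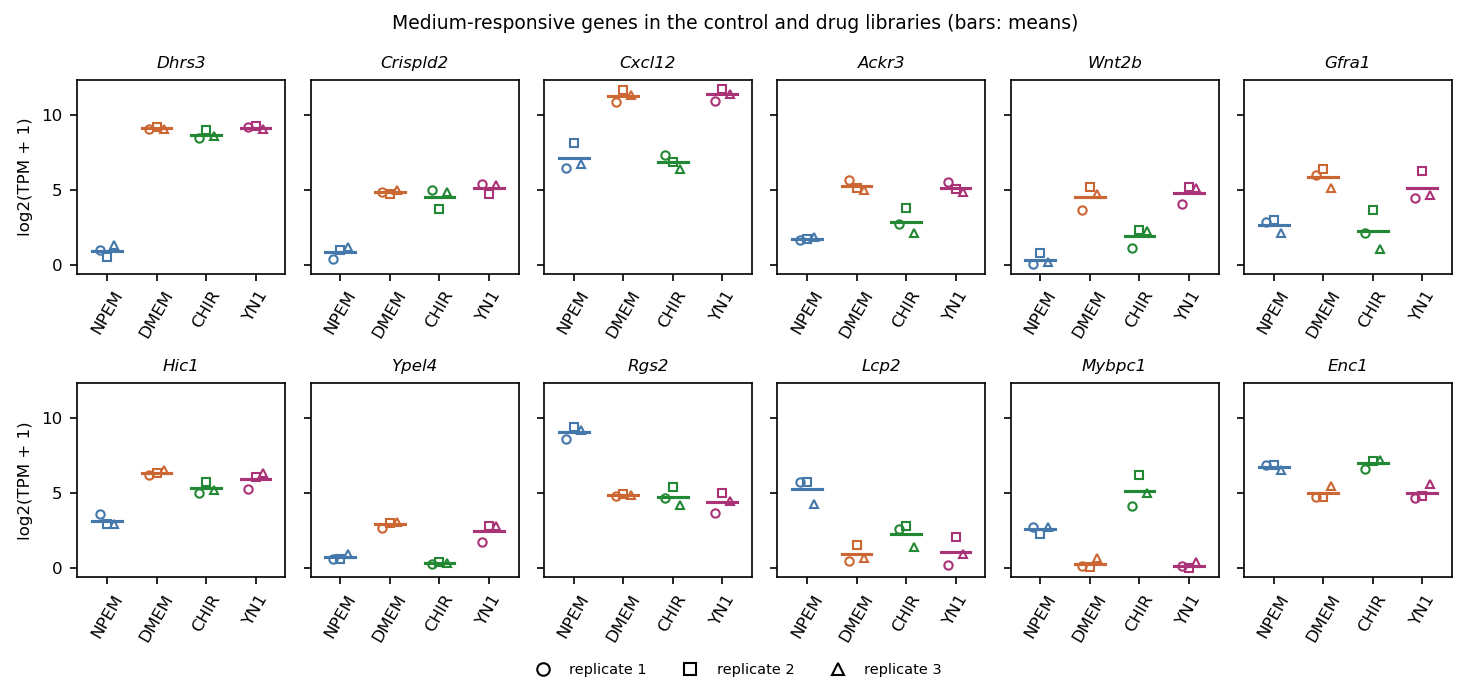
log2(TPM + 1) of 12 genes called between DMEM and NPEM, in the NPEM and DMEM controls and the CHIR and YN1 cultures, 3 libraries each; symbols mark replicates and bars means, and the genes were chosen after their values were seen. Dhrs3, Crispld2 and Rgs2 in CHIR lie near the DMEM control, Dhrs3 below it in every library, and Cxcl12 in CHIR (84.7 to 159 TPM) lies near NPEM (85.7 to 282 TPM).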

How the data were processed

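Poly-A selected RNA was sequenced without strand in 3 libraries per group, described as biological replicates. Per the labels and the study's methods, the authors checked reads with FastQC, aligned them with STAR to mm9 and mm10, quantified with RSEM and Kallisto and deposited TPM values per library, collapsed to 54184 genes. Versions and the annotation release are not given in the sources used here. The read length is given differently by the labels and the methods. Deposited columns of test results against NPEM, and 2 tables of fold changes and p-values for the drugs, were not used. Overlapping and antisense genes cannot be told apart.

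TPM were read as deposited. Genes reaching 1 TPM in 3 or more of the 6 libraries were kept, and their log2(TPM + 1) went into limma 3.58.1 (R 4.3.3; linear model, moderated with a mean-variance trend). Its tests have both tails, and p-values were adjusted by Benjamini and Hochberg across the genes kept. The fit was tested on simulated data. Depth cannot be read from TPM, so no counting error is given. Over 14343 genes the deviations of same-numbered NPEM and DMEM libraries from their group means had correlations of 0.42 to 0.54, and those of different numbers -0.35 to -0.10. The numbers, shared in the labels, therefore pair the libraries. Alternatives were the replicate block, a pseudocount of 0.1, no filter, a minimum mean of 5 TPM, quantile normalization, no trend, all 4 groups in one fit, and each library left out, over the same genes.

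The genes named are the 12 largest rises and falls among calls without overlapping libraries, without genes of predicted, small RNA or pseudogene name, the 5 largest per direction called with the block only, list members called in either fit, and defining members. Other called genes, and genes shown for a role, were named after their values were seen. The members and 42 lists were chosen with earlier results of these data known. Of the list genes, those absent from the tables, Acta2 among them, were not analysed here. Some results are not reported here. Figures were drawn with Python 3.11.15, numpy 2.4.6, pandas 2.3.3 and matplotlib 3.10.9.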

Additional observations from a re-analysis of the deposited data

How the results depend on the processing

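Between the DMEM and NPEM controls, 64 genes were called. With the replicate block there were 933, with no filter 5, with a minimum mean of 5 TPM 36, with all 4 groups in one fit 237, and with both all groups and the block 2025. With a pseudocount of 0.1, quantile normalization and no trend the count was 61, 81 and 58. Leaving out 1 library gave 10 to 38 calls. Leaving out replicate 1, 2 or 3 in both groups, an alternative chosen after seeing the data, gave 4, 1 and 1 calls, and with the block 383, 36 and 350. The same 64 genes were among those called with the block, and each kept its direction in all fits that tested it. Under quantile normalization the median over all genes was -0.02 and not 0.09, 49 genes were called higher and 32 lower in place of 49 and 15, and the medians of the lists with named directions kept their sign. At the study's threshold, 1523 genes passed, and 1000 without replicate 3 in both groups and 2311 without replicate 1 in both groups with the block. For YN1 the count of 0 became 1 without trend. For CHIR the count of 36 became 1832 with the replicate block, 0 with no filter, 1 with a minimum mean of 5 TPM, 2 with quantile normalization, 437 with all groups, 3503 with all groups and the block, and 0 to 6 with a library left out. The cause of these moves was not tested, other than that fits with fewer libraries have fewer degrees of freedom. Directions turned for genes without a call: Six2 ran from -0.59 to 0.35 with libraries left out, Cited1 from -0.41 to 0.59 and to -0.024 with quantile normalization, Osr1 from -0.69 to 0.47, Wt1 from -0.18 to 0.58 and Bgn, called with the block only, from -0.14 to 0.90. Six2 was 0.041, Cited1 -0.081 and Osr1 0.019 without replicate 1 in both groups, and Wt1 -0.29 without replicate 3 in both groups, the same with the block. Depth is unknown, so levels under 1 TPM have no stated precision.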
